A study of Homo sapiens with 4 samples.

Results

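The genes followed here are MYC, its dimerization partner MAX and 38 genes that build ribosomes, measured in MHCC-97H, a human hepatocellular carcinoma line of high metastatic capacity. They were chosen by gene symbol for their function, with earlier results of these data known, so counts over them are descriptions. All 40 symbols matched exactly 1 row each among the 33478 rows of the expression table. Values are in TPM, which corrects for the length of each gene, so levels can be set side by side between genes. Each of the 40 genes averaged at least 1 TPM over the libraries, the level required for testing, which 14038 genes reached. Their means ran from 7.58 TPM for UTP20 to 481 TPM for NPM1.

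There were 4 RNA sequencing libraries. Of these, 2 were labelled as carrying a short hairpin RNA (shRNA) against UCK2, a kinase of pyrimidine salvage, with the genotype given as UCK2 knockdown, and 2 carried the label SH-NC with the genotype control. Both titles of the UCK2 shRNA group bear the letter B, the labels name no number of hairpins or cultures, and p-values therefore measure only the spread between these libraries. UCK2 itself measured 121 and 67.8 TPM in libraries labelled UCK2 shRNA, against 136 and 93.6 TPM in the controls. Its 2 groups overlapped, so the targeted gene does not separate the labels. Its scaled log2 difference, as defined below, was -0.08 (95% interval -0.72 to 0.57, limma adjusted p = 0.990), and each direction below rests on the library titles. Of 14 hepatocyte and hepatoma markers 13 averaged at least 1 TPM over the libraries, with KRT8, KRT18, HNF4A, ALB and AFP among them. Others were near the floor. APOB averaged 0.737 TPM, FGB 3.39 TPM and APOA1 1.40 TPM, with APOA1 at 0.250 TPM in UCK2 shRNA replicate 2. Of 13 retina markers, read because the labels' extraction protocol mentions retinas, 12 averaged under 1 TPM, and the whole list summed to between 3.22 and 4.74 TPM per library.

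Ribosomes are assembled in the nucleolus. RNA polymerase I transcribes a long precursor RNA there, small nucleolar ribonucleoproteins (snoRNPs) guide its chemical modification and cleavage, and helicases, GTPases and scaffold proteins fold and trim it into the small and the large ribosomal subunit. MYC, which binds DNA as a dimer with MAX, is known to drive many of these genes, and tumour cells, hepatocellular carcinoma included, often carry high levels of both. The best known binding motif of the MYC and MAX dimer is the E-box CACGTG.

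This motif was common in the promoters of the genes followed. RefSeq promoter windows (build GRCh38.p14, from 250 bases before to 50 bases after a gene's start) matched 33 of the 40 genes by symbol, 9 of them with more than 1 window. MYC, BOP1, RRS1, NOP58, NOLC1, RRP12 and DDX18 had no entry and are in none of the E-box counts. CACGTG, which reads the same on both strands, stood in a window of 14 of these 33 genes (42.4%). By the same search it stood in 12.7% of the 9197 tested genes with a window, and in 7.26% of all 35116 windows. The 4 promoters below come from 4 genes with 1 window each and with at least 1 E-box. They show where the motif lies in an H/ACA snoRNP subunit (NOP10), a C/D snoRNP subunit (FBL), a U3 snoRNP protein (RRP9) and a large-subunit factor (NOP2). They are written 5′ to 3′ along each gene, and capitals mark the E-box.
NOP10, chr15:34343087-34343386, minus strand: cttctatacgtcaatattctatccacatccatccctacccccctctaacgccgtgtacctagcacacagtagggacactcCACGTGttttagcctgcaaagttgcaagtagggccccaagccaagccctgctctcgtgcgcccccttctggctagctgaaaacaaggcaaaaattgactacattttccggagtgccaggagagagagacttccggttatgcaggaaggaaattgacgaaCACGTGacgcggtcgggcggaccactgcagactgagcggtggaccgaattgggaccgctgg
FBL, chr19:39846330-39846629, minus strand: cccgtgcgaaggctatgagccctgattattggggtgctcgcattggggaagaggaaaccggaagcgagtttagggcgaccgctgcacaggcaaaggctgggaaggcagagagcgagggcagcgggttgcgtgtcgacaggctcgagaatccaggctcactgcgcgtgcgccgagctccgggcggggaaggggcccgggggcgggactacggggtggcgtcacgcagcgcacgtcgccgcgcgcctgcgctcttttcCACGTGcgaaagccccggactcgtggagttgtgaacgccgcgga
RRP9, chr3:51941855-51942154, minus strand: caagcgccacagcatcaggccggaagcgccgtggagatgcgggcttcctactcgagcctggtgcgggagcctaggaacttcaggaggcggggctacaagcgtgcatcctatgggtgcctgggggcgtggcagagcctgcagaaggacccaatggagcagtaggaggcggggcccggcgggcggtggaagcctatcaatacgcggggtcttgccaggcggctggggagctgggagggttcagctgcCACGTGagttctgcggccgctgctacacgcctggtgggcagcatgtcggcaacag
NOP2, chr12:6568242-6568541, minus strand: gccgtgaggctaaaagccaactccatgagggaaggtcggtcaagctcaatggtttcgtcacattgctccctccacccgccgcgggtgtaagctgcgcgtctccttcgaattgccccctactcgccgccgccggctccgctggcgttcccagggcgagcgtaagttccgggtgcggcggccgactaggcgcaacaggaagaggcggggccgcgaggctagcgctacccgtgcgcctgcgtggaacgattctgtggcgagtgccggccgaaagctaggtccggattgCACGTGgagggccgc
Counted from the RefSeq start, the E-boxes of NOP10 began at positions -170 and -11, that of FBL at 7, that of RRP9 at -5 and that of NOP2 at 36. A match describes the letters of the window and shows no binding.

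Most of the 40 genes had lower TPM values in libraries labelled UCK2 shRNA than in the controls as deposited, and none passed the test. As deposited, 35 of 40 had a log2 difference below 0, where 74.7% of all tested genes did. In 29 of 40 both libraries labelled UCK2 shRNA lay below both controls, against 44.4% of all tested genes, and in 0 did they lie above, against 5.46%. The median log2 difference was -0.37 for the 40 genes and -0.22 for all tested genes. With limma (log2(TPM + 1), Benjamini-Hochberg adjustment over all 14038 genes), 0 of 40 were called higher or lower at an adjusted p under 0.05, and 0% of all genes were called in each direction. The smallest adjusted p among the 40 was 0.294. At an unadjusted p under 0.05, 15 were lower, against 14.0% of all genes, and 0 were higher, against 1.38%.

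Much of this follows a shift of the whole table. Of the fixed TPM total, 32.3% and 35.7% lay outside the rows used here in libraries labelled UCK2 shRNA, against 15.0% and 14.9% in the controls. Median-ratio scaling, which divides each library by its median ratio to the mean profile, brought the median of all tested genes to -0.01. Scaled values are given beside the deposited ones for that reason. After scaling 28 of 40 had a log2 difference below 0, where 50.8% of all tested genes did, and the median was -0.13. Both libraries labelled UCK2 shRNA lay below both controls for 9 genes (MYC, MAX, NOLC1, TSR1, BOP1, NOP2, NOP16, PPAN and SURF6), against 15.5% of all genes. They lay above for 1 (POLR1A), against 16.0%. At an unadjusted p under 0.05 the scaled fit had 1 of the 40 lower (BOP1), against 1.42% of all genes, and 0 higher, against 3.97%. At an adjusted p under 0.05 it had 0 in either direction, where 0% of all genes were called lower and 0.0641% higher. Rescaling the rows to the same total in each library put 21 of 40 below 0, where 33.6% of all tested genes were, and gave a median of -0.0069, against 0.11 for all genes. The count below 0 thus moved with the scaling, while the median of the 40 stayed below that of all genes by 0.11 to 0.15, as deposited and under both of these scalings, and by 0.018 with quantile normalization.

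**Figure D1:**
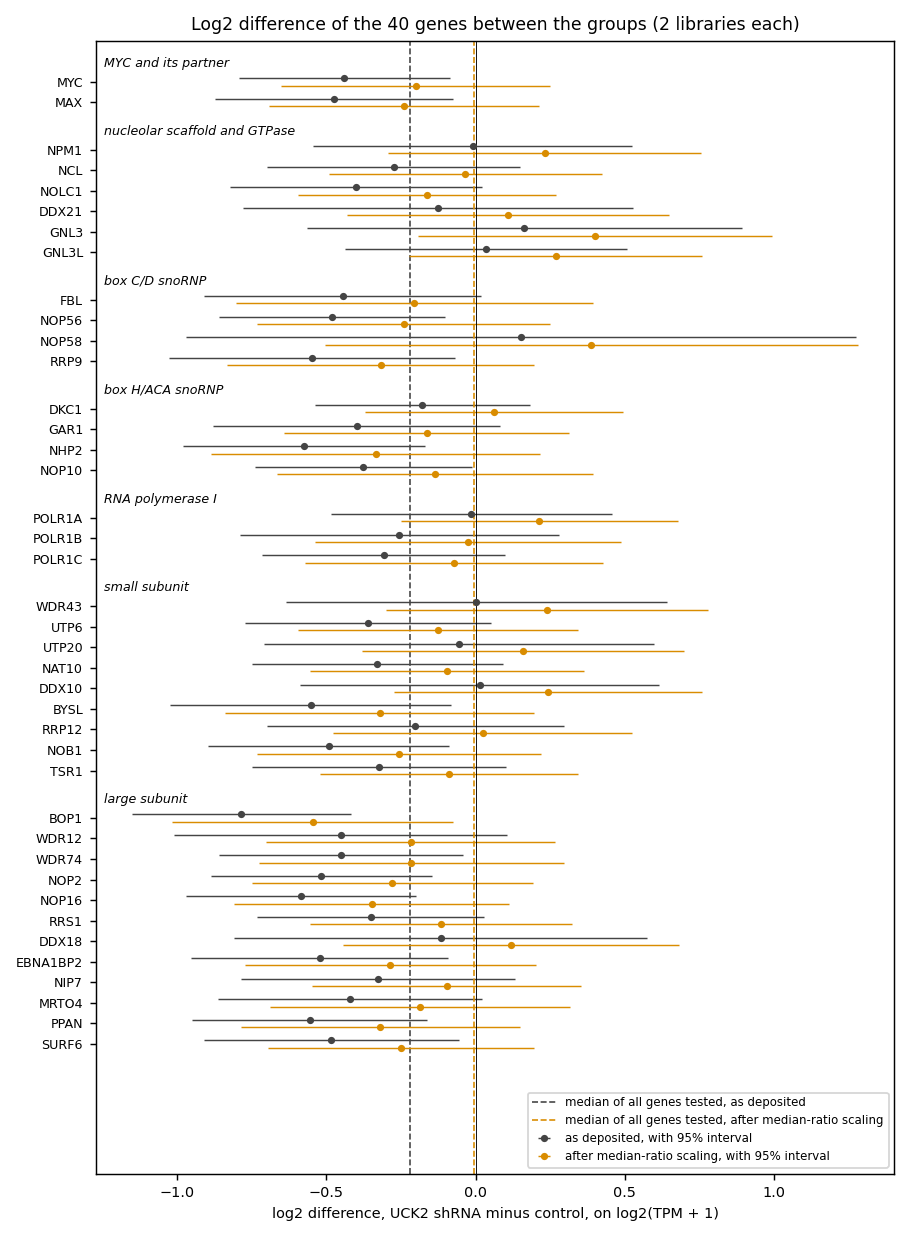
Log2 difference (x axis, libraries labelled UCK2 shRNA minus controls, on log2(TPM + 1)) of each of the 40 genes (y axis, by role), with its 95% interval, as deposited (grey) and after median-ratio scaling (orange). Dashed lines mark the medians of all tested genes, -0.22 and -0.01; after scaling the interval of 39 of the 40 genes holds 0.

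Set beside other genes of their level, the 18 genes from 50 TPM upward had like scaled medians, and the 22 below 50 TPM stood further off. Among those averaging from 50 to below 100 TPM, the scaled median was -0.16 for 9 of the 40 and -0.13 for all 1243 tested genes in that range. Between 100 and 700 TPM it was -0.20 for 9 of the 40 and -0.18 for all 998. Between 20 and 50 TPM it was -0.14 for 18 of the 40 and -0.06 for all 2756. The 4 genes between 5 and 20 TPM, which are POLR1A, UTP20, DDX10 and RRP12, had a scaled median of 0.19, against 0.03 for all 4512.

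MYC and MAX both had lower values in libraries labelled UCK2 shRNA, with no overlap between groups, and neither passed the test. Of all tested genes 44.4% were apart in this direction as deposited, and 15.5% after scaling. MYC (ENSG00000136997, chromosome 8, 127735434 to 127741434, plus strand, hg38) measured 90.0 and 86.9 TPM in libraries labelled UCK2 shRNA, against 119 and 122 TPM in the controls. As deposited the 2 libraries of each group lay close together, and the means were 88.5 ± 2.19 and 120 ± 1.68 TPM (SD, n = 2 each). With median-ratio scaling the values were 98.1 and 93.7, against 100.5 and 121.1 in the controls, so the controls lay further apart. The log2 difference of MYC was -0.44 ± 0.15 (SE; limma adjusted p = 0.294). After scaling it was -0.20, with a 95% interval of -0.65 to 0.25 and an adjusted p = 0.955, and rescaling the rows to 1 total gave -0.077. MAX (chromosome 14, minus strand) measured 35.6 and 39.1 TPM in libraries labelled UCK2 shRNA, against 51.9 and 52.5 TPM in the controls. Its log2 difference was -0.47 ± 0.17 (SE, limma adjusted p = 0.294), and -0.24 after scaling. MYC stood above MAX by 2.53 and 2.22 times in libraries labelled UCK2 shRNA and by 2.29 and 2.31 times in the controls, so the ratio of these levels overlapped between groups. In bulk libraries a lower level per cell and fewer cells expressing a gene cannot be told apart.

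Of the wider MYC network, 14 of 15 listed genes were tested and 0 passed in either direction. The most abundant were RUVBL2 and RUVBL1, ATPases that act as MYC cofactors and in snoRNP assembly. RUVBL2 measured 122 and 94.0 TPM in libraries labelled UCK2 shRNA, against 158 and 183 TPM in the controls. RUVBL1 measured 70.0 and 54.5 TPM, against 81.6 and 81.0 TPM. MYCN, a paralogue of MYC, was near the floor of testing, at 1.23 and 1.09 TPM against 1.498 and 1.21 TPM in the controls. MNT, which competes with MYC for MAX, measured 25.2 and 24.7 TPM, against 27.2 and 22.0 TPM, and its groups overlapped.

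**Figure D2:**
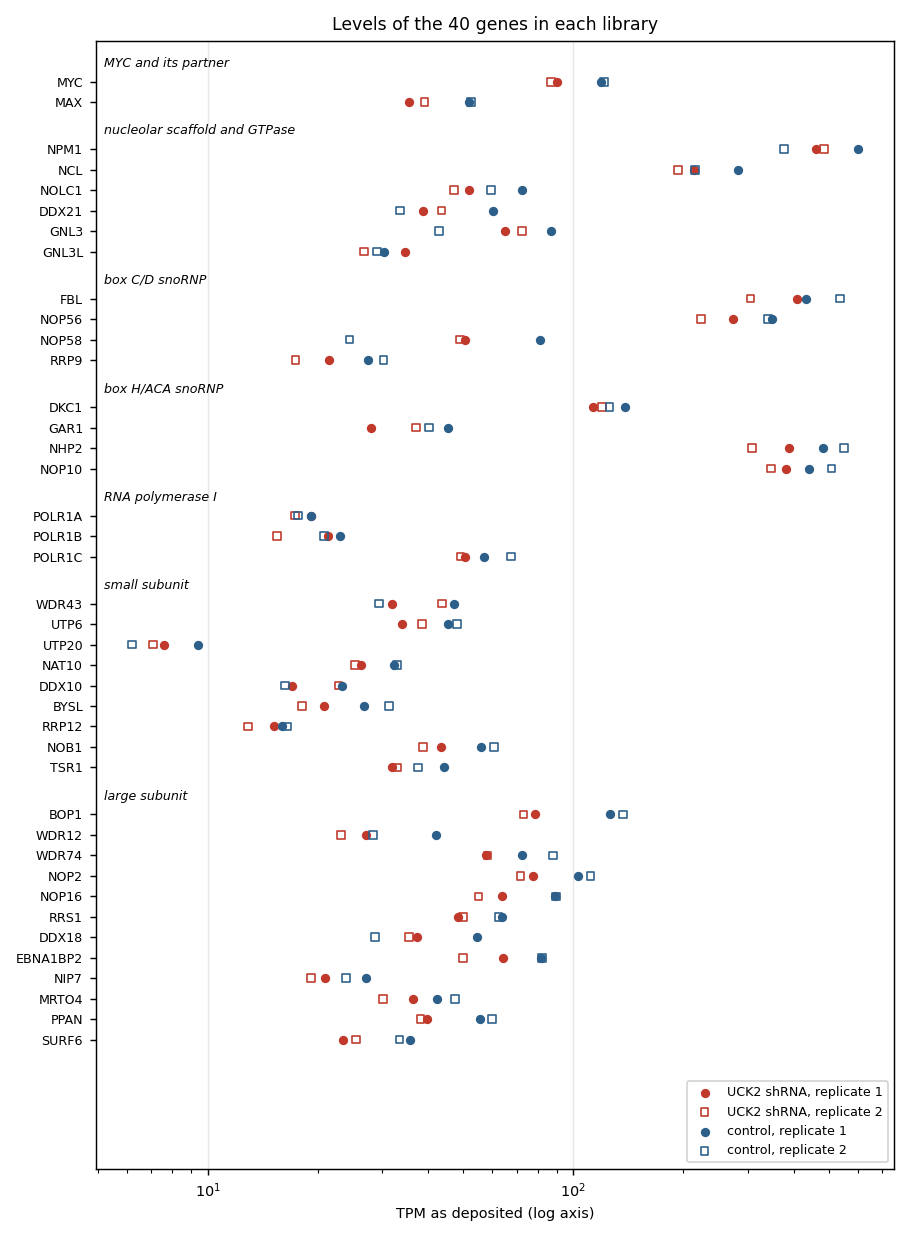
TPM as deposited (x axis, log scale) of each of the 40 genes (y axis, by role) in the 2 libraries labelled UCK2 shRNA (red) and the 2 controls (blue), with replicate 1 filled and replicate 2 open. MYC and BOP1 separate the groups, with both red points below both blue ones, while for NPM1, GNL3, NOP58, DDX18 and DDX21 both red points lie between the 2 controls.

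Of the nucleolar scaffold proteins and GTPases 4 of 6 lay above 0 after scaling, with a scaled median of 0.17. NPM1 (nucleophosmin, chromosome 5), an abundant nucleolar chaperone, measured 461 and 485 TPM in libraries labelled UCK2 shRNA, against 601 and 377 TPM in the controls. Its log2 difference was -0.01 ± 0.23 (SE, limma adjusted p = 0.989), and 0.23 after scaling. The annotation (GENCODE 29) names 45 pseudogenes after NPM1, so reads that fit several copies make its level uncertain. GNL3 (nucleostemin), a nucleolar GTPase, measured 65.0 and 72.2 TPM in libraries labelled UCK2 shRNA, against 86.6 and 43.0 TPM in the controls. It had the highest scaled log2 difference of the 40 genes, 0.40 (95% interval -0.19 to 0.99, adjusted p = 0.955). The controls lay on either side of the libraries labelled UCK2 shRNA, for NPM1 and GNL3 alike. Its relative GNL3L measured 34.7 and 26.8 TPM, against 30.4 and 29.1 TPM, with a scaled log2 difference of 0.27. DDX21, an RNA helicase active in precursor transcription and processing, measured 38.9 and 43.6 TPM, against 60.3 and 33.6 TPM in the controls. NCL (nucleolin) measured 214 and 193 TPM, against 282 and 215 TPM. NOLC1, which escorts snoRNPs, measured 51.8 and 47.2 TPM, against 72.3 and 59.4 TPM. It was the 1 gene of the 6 whose groups stayed apart after scaling (-0.16, limma adjusted p = 0.955), where 15.5% of all tested genes were lower and apart.

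Box C/D snoRNPs place methyl groups on ribosomal RNA, with FBL (fibrillarin) as the methyltransferase and NOP56 and NOP58 as its paired scaffold. FBL (chromosome 19, minus strand) measured 410 and 305 TPM in libraries labelled UCK2 shRNA, against 434 and 536 TPM in the controls, with a log2 difference of -0.45 ± 0.20 (SE, limma adjusted p = 0.337) and -0.21 after scaling. NOP56 measured 273 and 223 TPM, against 349 and 340 TPM, and its log2 difference was -0.48 and a scaled one of -0.24. RRP9, a protein of the U3 snoRNP, measured 21.5 and 17.4 TPM, against 27.4 and 30.3 TPM. For these 3 genes the groups were apart and lower as deposited, as for 44.4% of all tested genes, and overlapped after scaling. NOP58 went the other way and rested on the controls. It measured 50.5 and 49.0 TPM in libraries labelled UCK2 shRNA, against 81.0 and 24.4 TPM in the controls. Its log2 difference was 0.15 ± 0.48 (SE, limma adjusted p = 0.908), and 0.39 after scaling (95% interval -0.51 to 1.28). Without control replicate 1 the deposited log2 difference became 1.00, in a fit that rests on 1 control library. Without control replicate 2 it became -0.69, again with 1 control library. NOP56 exceeded NOP58 by 5.40 and 4.56 times in libraries labelled UCK2 shRNA and by 4.31 and 13.9 times in the controls, so the level ratio of this pair differed most between the 2 controls.

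Box H/ACA snoRNPs convert uridine to pseudouridine, with DKC1 (dyskerin) as the enzyme and NHP2, NOP10 and GAR1 as its partners. All 4 had lower values in libraries labelled UCK2 shRNA with no overlap as deposited, as did 44.4% of all tested genes. After scaling 0 of the 4 kept the groups apart, where 15.5% of all genes were lower and apart. NHP2 (chromosome 5, minus strand) measured 388 and 308 TPM in libraries labelled UCK2 shRNA, against 483 and 550 TPM in the controls. Its log2 difference was -0.57 ± 0.17 (SE, limma adjusted p = 0.294), and -0.33 after scaling. NOP10, whose promoter holds 2 E-boxes, measured 381 and 348 TPM, against 441 and 508 TPM, with a scaled log2 difference of -0.14. DKC1 measured 113 and 120 TPM, against 138 and 126 TPM, and its scaled log2 difference was 0.06. GAR1 measured 28.1 and 37.1 TPM, against 45.5 and 40.4 TPM. These subunits share 1 complex and had unequal levels in each library. The level of NHP2 was 3.43 and 2.57 times that of DKC1 in libraries labelled UCK2 shRNA, and 3.49 and 4.38 times in the controls. That of DKC1 was 4.03 and 3.23 times that of GAR1, and 3.04 and 3.11 times in the controls.

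The RNA polymerase I subunits had a median log2 difference of -0.25 as deposited and -0.03 after scaling. POLR1A, the largest subunit, measured 19.1 and 17.3 TPM in libraries labelled UCK2 shRNA, against 19.1 and 17.7 TPM in the controls, a log2 difference of -0.01 ± 0.20 (SE, limma adjusted p = 0.982). It was the 1 gene of the 40 whose libraries labelled UCK2 shRNA both lay above the controls after scaling (0.21, limma adjusted p = 0.955), as 16.0% of all tested genes did. POLR1B, the second subunit, measured 21.3 and 15.4 TPM, against 23.0 and 20.8 TPM. POLR1C, which RNA polymerase III also uses, measured 50.7 and 49.2 TPM, against 56.9 and 67.5 TPM, with a scaled log2 difference of -0.07 (95% interval -0.57 to 0.43). YIPF3 overlaps POLR1C on the opposite strand at 41.3 and 42.6 TPM, against 50.3 and 67.6 TPM in the controls, so its 2 groups were apart in the same direction. XPO5 does so at 15.4 and 16.4 TPM, against 19.5 and 17.3 TPM. If counting ignored strand, which no label settles, their reads cannot be told apart from those of POLR1C. Other genes of this machinery, 17 of 17 tested, included POLR2L and POLR2E, subunits shared among the RNA polymerases. POLR2L measured 318 and 252 TPM, against 306 and 354 TPM in the controls, and POLR2E 258 and 209 TPM, against 341 and 387 TPM. Of the 17, 0 passed, and 9 of 17 lay below 0 after scaling.

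Factors of the small subunit were mixed, with 5 of 9 below 0 after scaling and a scaled median of -0.09. NOB1, the endonuclease that makes the final cut of the small-subunit RNA, measured 43.5 and 38.8 TPM in libraries labelled UCK2 shRNA, against 55.9 and 60.6 TPM in the controls. Its log2 difference was -0.49 ± 0.17 (SE, limma adjusted p = 0.294), and -0.26 after scaling. BYSL (bystin), a late assembly factor, measured 20.9 and 18.1 TPM, against 26.8 and 31.3 TPM, with a scaled log2 difference of -0.32. For NOB1 and BYSL the groups were apart and lower as deposited, as for 44.4% of all tested genes, and overlapped after scaling. NAT10, which acetylates cytidines of ribosomal RNA, measured 26.3 and 25.2 TPM, against 32.4 and 32.9 TPM. TSR1, a GTPase-like factor, measured 31.9 and 32.9 TPM, against 44.2 and 37.6 TPM, and UTP6, of the early processome, 33.9 and 38.6 TPM, against 45.5 and 48.1 TPM. RRP12, an export factor, measured 15.2 and 12.9 TPM, against 15.98 and 16.5 TPM. For the remaining 3 genes of this role both libraries labelled UCK2 shRNA lay between the controls. WDR43, an early processome protein, measured 31.9 and 43.7 TPM, against 47.2 and 29.4 TPM. The helicase DDX10 measured 17.0 and 22.8 TPM, against 23.3 and 16.3 TPM, and the processome scaffold UTP20 7.62 and 7.08 TPM, against 9.43 and 6.21 TPM.

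Large-subunit factors had the lowest median log2 difference of the roles, with box C/D snoRNP genes and the MYC and MAX pair close to them. The medians were -0.467, -0.463 and -0.457 as deposited, and -0.234, -0.223 and -0.220 after scaling. Over 43 further genes of large-subunit maturation the scaled median was -0.06. Of the 12 large-subunit factors, 12 of 12 lay below 0 as deposited, against 74.7% of all tested genes, and 11 of 12 had groups apart, against 44.4%. After scaling 11 of 12 lay below 0, against 50.8%, 5 of 12 had groups apart, against 15.5%, and the median was -0.23. With the rows rescaled to the same total, RRS1, NIP7 and DDX18 lay above 0. BOP1 (ENSG00000261236, chromosome 8, 144262102 to 144291370, minus strand, hg38), which forms the PeBoW complex with WDR12 and PES1, measured 78.4 and 73.0 TPM in libraries labelled UCK2 shRNA, against 126 and 137 TPM in the controls. The means were 75.7 ± 3.81 and 131 ± 7.84 TPM (SD, n = 2 each). Its log2 difference of -0.78 ± 0.16 was the lowest of the 40 genes (SE, limma unadjusted p = 0.00141, adjusted p = 0.294). After scaling it was -0.55 (95% interval -1.02 to -0.07, adjusted p = 0.861), the 1 interval of the 40 that did not hold 0. SCX, a gene on the opposite strand within the span of BOP1, measured 6.02 and 7.03 TPM, against 12.6 and 9.28 TPM. WDR12, the partner of BOP1, measured 27.0 and 23.2 TPM, against 42.1 and 28.4 TPM, and its groups overlapped after scaling.

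NOP16 and PPAN, also large-subunit factors, stayed apart after scaling. NOP16 measured 63.6 and 55.1 TPM in libraries labelled UCK2 shRNA, against 88.9 and 89.6 TPM in the controls, a log2 difference of -0.58 ± 0.16 (SE, limma adjusted p = 0.294) and -0.35 after scaling. HIGD2A overlaps NOP16 on the opposite strand at 170 and 132 TPM, against 205 and 221 TPM. PPAN measured 39.8 and 38.2 TPM, against 55.6 and 60.02 TPM, with a scaled log2 difference of -0.32, and a read-through gene, PPAN-P2RY11, overlaps it on the same strand at up to 1.64 TPM, as P2RY11 does at up to 8.87 TPM. NOP2, a cytosine methyltransferase of the large-subunit RNA, measured 77.6 and 71.7 TPM, against 103 and 111 TPM, and SURF6 23.5 and 25.4 TPM, against 35.7 and 33.5 TPM. Their scaled log2 differences were -0.28 and -0.25, and both kept their groups apart.

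Among the remaining large-subunit factors, EBNA1BP2 measured 64.2 and 49.9 TPM in libraries labelled UCK2 shRNA, against 81.5 and 82.0 TPM in the controls. WDR74 measured 57.9 and 58.2 TPM, against 72.1 and 88.2 TPM. RRS1, which helps to bring in the precursor particle of the small 5S RNA, measured 48.5 and 50.01 TPM, against 63.9 and 62.4 TPM. Each of these 3 was lower and apart as deposited, as were 44.4% of all tested genes. After scaling each overlapped, with log2 differences of -0.29, -0.21 and -0.12. MRTO4, a factor of the ribosomal stalk, measured 36.5 and 30.2 TPM, against 42.3 and 47.4 TPM, and NIP7 21.0 and 19.2 TPM, against 27.0 and 23.9 TPM. DDX18, an RNA helicase, was the 1 gene of this role above 0 after scaling (0.12), at 37.4 and 35.5 TPM, against 54.5 and 28.7 TPM.

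The 2 controls often differed more than the groups did. Single libraries are compared within a group and means of 2 libraries between groups, so these measures are unlike. After scaling, the median absolute difference between the 2 controls was 0.31 on log2(TPM + 1) over the 40 genes, and that between the 2 libraries labelled UCK2 shRNA was 0.15. The median absolute difference between the groups was 0.21. In 11 of 40 genes the difference between the groups exceeded that between the controls. Over all tested genes the same 3 medians were 0.30, 0.22 and 0.19. Control replicate 2 stood apart. Its median deviation from each gene's mean was 0.17 over the 40 genes, against -0.01 and -0.10 in UCK2 shRNA replicates 1 and 2 and -0.01 in control replicate 1. In control replicate 2 the large-subunit factors were high (0.28) and the scaffold group was low (-0.19). As deposited, removing control replicate 1 gave 0.33 for NPM1, 0.29 for DDX21 and 0.34 for DDX18. Removing control replicate 2 gave -0.35, -0.54 and -0.57 for these 3, and turned GNL3 to -0.33.

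**Figure D3:**
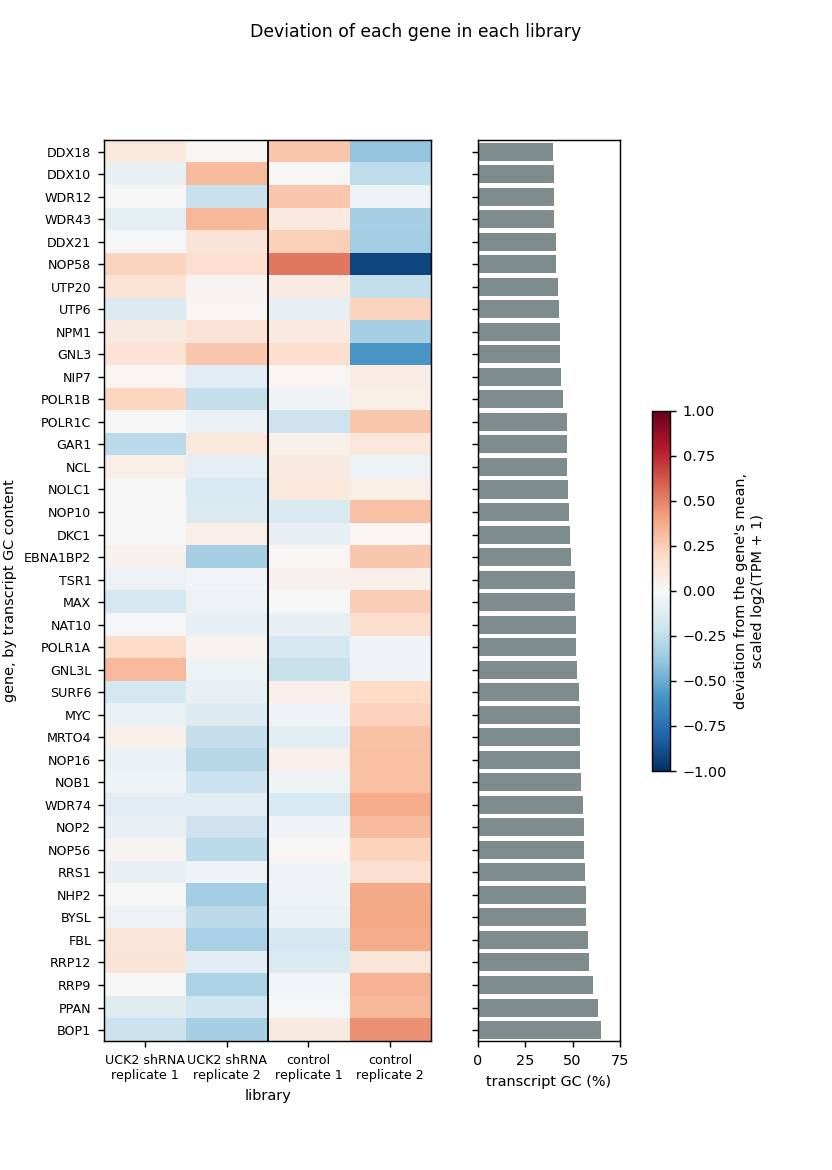
Deviation of each of the 40 genes from its own mean (colour, scaled log2(TPM + 1)) in each library (x axis), with genes ordered down the page by the GC content of their longest protein-coding transcript (bars, percent). Control replicate 2 is low for most genes at the top, with NOP58 lowest, and high for those at the bottom, with BOP1 at the very bottom.

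GC content of the transcript, a property the choice of genes did not use, ran alongside these differences. It was read for all 40 genes from the longest protein-coding transcript in GENCODE 29, and ranged from 39.7% (DDX18) to 65.2% (BOP1). The 10 genes of lowest GC, up to 43.5%, were DDX18, DDX10, WDR12, WDR43, DDX21, NOP58, UTP20, UTP6, NPM1 and GNL3. Of these, 8 of 10 had a scaled log2 difference above 0 (median 0.20), and 9 of 10 were higher in control replicate 1 than in control replicate 2 (median 0.43). The 10 of highest GC, from 55.9%, were NOP2, NOP56, RRS1, NHP2, BYSL, FBL, RRP12, RRP9, PPAN and BOP1. Of these, 9 of 10 lay below 0 (median -0.30), and 0 of 10 were higher in control replicate 1 (median -0.35).

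The same slope ran through the whole table. The 1930 tested protein-coding genes within the GC range of the lowest 10 had medians of 0.09 between the groups and 0.26 between the controls, and the 2871 within that of the highest 10 had -0.16 and -0.26. Across the 40 genes Spearman's rho with GC content was -0.68 for the scaled log2 difference and -0.76 for the difference between controls. Across all 11549 tested protein-coding genes it was -0.50 and -0.58. These are descriptions, since the genes share the 4 libraries and the controls enter both measures. Removing a smooth trend of GC content from each library left 30 of 40 genes below 0, against 55.5% of the 11549 genes, with a median of -0.12 and a range of -0.38 to 0.34. BOP1 then stood at -0.37, MYC at -0.13 and GNL3 at 0.34, and 0 of 40 passed (smallest limma adjusted p = 0.933).

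**Figure D4:**
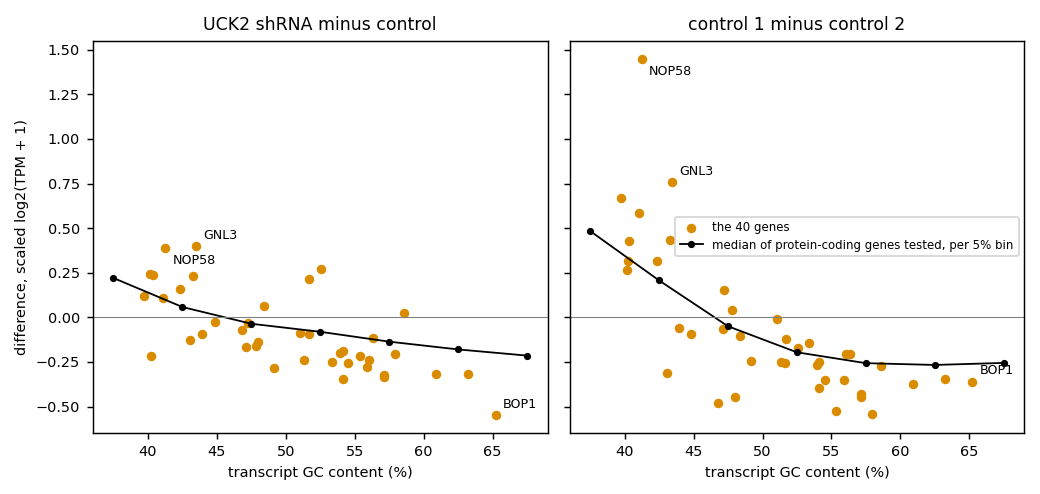
Transcript GC content (x axis, percent) against the scaled difference on log2(TPM + 1) (y axis), for the libraries labelled UCK2 shRNA minus controls (left) and for control replicate 1 minus control replicate 2 (right). Orange points are the 40 genes and the black line joins medians of tested protein-coding genes in 5% bins; both panels slope down, from 0.22 and 0.48 in the lowest bin to -0.21 and -0.26 in the highest.

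Genes with and without an E-box had overlapping values. The 14 genes with CACGTG in a promoter window had a median log2 difference of -0.41, with 12 of 14 below 0, and a scaled median of -0.18 (range -0.32 to 0.40). The 19 with a window and no such motif had -0.33, with 17 of 19 below 0, and a scaled median of -0.10 (range -0.35 to 0.27). No test was made of this difference.

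Other genes of ribosome biogenesis lay nearer to the whole table after scaling than the 40 did, a difference that was not tested. Beyond the 40, 158 genes of the MYC network, RNA polymerase I transcription, both subunits' maturation, snoRNP assembly and RNA end processing were listed, and 154 were tested. None passed with limma in either direction, with or without scaling, and the smallest adjusted p was 0.294 as deposited and 0.772 after scaling. As deposited 128 of 154 lay below 0 with a median of -0.28, where 74.7% of all tested genes did, and after scaling 92 of 154 did, with a median of -0.06, against 50.8% of all genes. For maturation of the small subunit 32 of 49 lay below 0 after scaling (median -0.10). The most abundant were TRMT112, a methyltransferase activator, at 329 and 295 TPM, against 372 and 464 TPM in the controls, and IMP4, of the U3 snoRNP, at 119 and 98.6 TPM, against 146 and 159 TPM. For the large subunit 23 of 43 did (median -0.06). EIF6, which keeps the subunits apart, measured 365 and 311 TPM, against 446 and 525 TPM, and NOP53, listed under its older symbol GLTSCR2, 196 and 224 TPM, against 273 and 295 TPM. The RNA end-processing list had 16 of 23 below 0 after scaling (median -0.09). Its most abundant genes encode subunits of ribonuclease P and MRP. POP7 measured 132 and 110 TPM, against 170 and 202 TPM, and POP4 124 and 103 TPM, against 146 and 148 TPM. Of 8 snoRNP assembly genes 3 lay below 0. PIH1D1 measured 62.4 and 67.9 TPM, against 91.7 and 76.8 TPM, and ZNHIT3 48.3 and 48.2 TPM, against 56.2 and 57.6 TPM.

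Marker lists differed between the libraries as well, and 0 of their genes passed. The 8 proliferation markers summed to 655 and 458 TPM in libraries labelled UCK2 shRNA, against 807 and 726 TPM in the controls, with 6 of 8 below 0 after scaling. The hepatocyte and hepatoma list summed to 2792 and 2421 TPM, against 3188 and 4296 TPM, mostly from KRT8 and KRT18. After scaling 12 of its 13 tested genes lay below 0. MALAT1 (ENSG00000251562), a noncoding RNA kept in the nucleus, was at 411 and 1240.2 TPM, against 161 and 58.8 TPM. The nuclear noncoding RNA list went both ways. Its 3 tested rows had log2 differences from -1.75 to 2.86 as deposited, and 1 of the 3 lay below 0 with and without scaling. Markers of blood, stroma and endothelium summed to 69.0 and 73.2 TPM, against 73.4 and 77.3 TPM, nearly all from CD68 and PECAM1, and CD3E was at 0 in every library. The part of these differences in the values of the ribosome biogenesis genes was not tested.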

How the data were processed

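RNA of MHCC-97H cells was sequenced in 4 libraries, 2 labelled UCK2 shRNA and 2 control, and grouped by title. The TPM values were deposited by the authors. Software credited in the submitters' processing notes, with no roles, is TopHat2 2.0.14, HTSeq, DESeq and edgeR, with build hg38; strand use is not stated. TPM keeps no depth, so no counting interval is given. Descriptions of 2 libraries differ from their titles in a cell line or gene number.

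Genes averaging at least 1 TPM (14038 of 33478) entered limma 3.58.1 on log2(TPM + 1) (lmFit, eBayes with trend, R 4.3.3), with two-sided p-values, Benjamini-Hochberg adjusted across these genes, and a threshold of 0.05. The pseudocount understates changes of low genes. In simulated data, with independent noise and no shift between libraries, the fit recovered 49 of 200 changes of 2-fold, with 3 false calls. Changes of that size thus mostly went uncalled in the simulation. Among the 40 genes the 95% interval held a log2 difference of -1 for 4 as deposited. After scaling it held -1 for 1 gene and 1 for 1 gene. Of 200 changes of 4-fold it recovered 197, with 28 false calls. An exact permutation test of 2 against 2 libraries cannot go below 0.333. Alternatives were other scalings, pseudocounts of 0.1 and 5, other filters, other variance models, a block for replicate number, and each library left out in turn. The GC correction (loess, span 0.3) and a crossed block were added after seeing the data. The 40 genes and all lists were chosen with earlier results of these data known. All 40 are given; per list, the 2 of highest mean TPM and any that passed are named, and others outside this rule were named after their values were seen. 155 of 158 further genes were in the rows used here. Figures used matplotlib 3.10.9.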

Additional observations from a re-analysis of the deposited data

How the results depend on the processing

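Pseudocounts of 0.1 and 5, no filter on low values, a mean TPM of at least 5 and both other variance models left all 40 directions and the count of 0 calls among the 40 genes as they were. BOP1, MYC and MAX stayed below 0 in all alternatives run. So did NOLC1, NOP56, RRP9, NHP2, BYSL, NOB1, WDR12, NOP2, NOP16, EBNA1BP2, PPAN and SURF6. The share of all tested genes that did so was not counted. Sizes differed: the log2 difference of MYC ran from -0.46 to -0.05. The median of the 40 genes, -0.37 as deposited, was -0.13 after median-ratio scaling, -0.12 with GC correction, -0.047 with quantile normalization, -0.025 with rescaling without the 50 most abundant genes and -0.0069 with all rows rescaled to 1 total. Genes below 0 numbered 22 and 21 under these last 2, where 36.2% and 33.6% of all tested genes lay below 0, with medians of 0.086 and 0.11. The median of all genes was -0.029 with quantile normalization and -0.028 with GC correction. Genes called higher over the whole table numbered 9 with median-ratio scaling, 8 with quantile normalization and 1 with GC correction.

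After median-ratio scaling the log2 differences of NPM1 (0.23), DDX21 (0.11), DKC1 (0.061), POLR1A (0.21), UTP20 (0.16), RRP12 (0.023) and DDX18 (0.12) turned above 0. With GC correction those of NPM1 (0.16), DKC1 (0.079), POLR1A (0.26), UTP20 (0.065) and RRP12 (0.14) did. With quantile normalization it was NPM1 (0.41), NCL (0.13), DDX21 (0.17), DKC1 (0.23), NOP10 (0.030), POLR1A (0.21), POLR1C (0.049), UTP20 (0.048), RRP12 (0.0023) and DDX18 (0.17). With all rows rescaled it was NPM1 (0.36), NCL (0.091), DDX21 (0.23), DKC1 (0.19), POLR1A (0.34), POLR1B (0.095), POLR1C (0.053), UTP20 (0.28), NAT10 (0.025), RRP12 (0.14), TSR1 (0.034), RRS1 (0.0080), DDX18 (0.24) and NIP7 (0.024), and without the 50 most abundant genes NPM1 (0.34), NCL (0.072), DDX21 (0.21), DKC1 (0.17), POLR1A (0.32), POLR1B (0.076), POLR1C (0.034), UTP20 (0.25), NAT10 (0.0071), RRP12 (0.12), TSR1 (0.015), DDX18 (0.22) and NIP7 (0.0062). Median-ratio scaling and both rescalings multiply all genes of a library by 1 factor, so all 40 moved the same way. For quantile normalization and GC correction the cause was not tested.

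With single libraries left out, where the lone library of a group is assumed to vary like the other group, with and without scaling, the median ranged from -0.43 to -0.074, the genes below 0 from 23 to 39, calls among the 40 from 0 to 1, and calls over all genes from 0 to 242 higher and from 0 to 108 lower, the highest of these without control replicate 1. Genes that turned ranged over -0.35 to 0.45 for NPM1, -0.47 to 0.048 for NCL, -0.54 to 0.40 for DDX21, -0.33 to 0.78 for GNL3, -0.15 to 0.46 for GNL3L, -0.66 to 0.067 for FBL, -0.69 to 1.11 for NOP58, -0.25 to 0.11 for DKC1, -0.59 to 0.024 for GAR1, -0.48 to 0.087 for NOP10, -0.081 to 0.29 for POLR1A, -0.47 to 0.20 for POLR1B, -0.43 to 0.17 for POLR1C, -0.33 to 0.45 for WDR43, -0.45 to 0.031 for UTP6, -0.32 to 0.32 for UTP20, -0.36 to 0.032 for NAT10, -0.23 to 0.44 for DDX10, -0.31 to 0.16 for RRP12, -0.59 to 0.047 for WDR74, -0.57 to 0.45 for DDX18 and -0.55 to 0.012 for MRTO4.

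Deviations of same-numbered libraries from their group means correlated at -0.21 over 14038 genes. This value cannot show whether same-numbered libraries shared a culture or batch. With the replicate number as a block, genes called higher numbered 29 and genes called lower 10, and 98 and 23 with scaling, with 0 of the 40 among them. With the numbers crossed 91 of the 14038 genes were called higher and 636 lower. Of the 40 genes 4 (FBL, NOP56, NHP2 and BOP1) were among those called lower. Depth is unknown from TPM, so precision rests on the spread of 2 libraries a group alone.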
